A study of Mus musculus with 4 samples.

Results

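The regions described here are 1002 peaks of open chromatin that lay far from coding gene ends, carried many reads and differed little between cells given GSK3368712 and cells given DMSO. They were chosen by 3 conditions on the authors' deposited table. The peak centre had to lie more than 5 kb from every end of a protein-coding gene of the mm10 RefSeq annotation. The level, which is the log2 mean normalised read count over both groups, had to be 9 or more, or 512 reads. The group means had to differ by no more than 0.05 on the log2 scale, or 3.53%. Of the 97699 peaks in the table, 67499 were distal by the first condition, 4811 of these were strong by the second, and 1002 of the strong distal peaks met the third (20.8%). The 1002 are called members below, and the 3809 strong distal peaks with a larger difference are the set against which they are placed. Because level and difference chose the members, both are given as descriptions with no test.

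The assay was ATAC-seq, which reads open chromatin from the DNA that a transposase can cut and tag, and the cells were the mouse cancer line MC38/gp100. Cells were kept in 1 µM GSK3368712 for 5 days or in the solvent DMSO for the same 5 days, with 2 libraries in each group. The labels do not state whether replicate libraries stem from separate cultures, so the authors' p-values measure a spread that may be technical. The table holds the mean of each group and no value per library, so no spread within a group can be shown and sequencing depth per library is unknown. It holds no expression values, so the cell label was not checked against marker transcripts.

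Type I protein arginine methyltransferases add a pair of methyl groups to the same nitrogen of arginine side chains in histones and RNA-binding proteins, and GSK3368712 inhibits them. Open sites far from gene ends include enhancers, where transcription factors bind and act on promoters at a distance, and sites held open by structural proteins. They also include starts of shorter transcripts inside long genes and starts of noncoding RNA genes, which a distance to the outer ends of coding genes does not separate from enhancers.

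Many members overlay such annotated starts, so the promoter windows of the strongest examples are shown first. Each window runs from 250 bases before to 50 after an annotated RefSeq start (GRCm38.p6) and lies wholly inside its peak. Capitals mark CG dinucleotides, which are dense in CpG-island promoters and sparse in most other mammalian DNA. Sp2 encodes a zinc finger factor of the Sp family and Ptprs a receptor-type tyrosine phosphatase, and theirs are the members of highest level over a protein-coding window. The Mad1l1 window, from the gene of a spindle checkpoint protein, lies in the strong distal peak with the lowest difference among peaks that hold a coding window and is shown for contrast. The windows are Sp2 at chr11:96977639-96977938, Ptprs at chr17:56462172-56462471 and Mad1l1 at chr5:140174869-140175168, all on the minus strand, printed 5′ to 3′.
Sp2: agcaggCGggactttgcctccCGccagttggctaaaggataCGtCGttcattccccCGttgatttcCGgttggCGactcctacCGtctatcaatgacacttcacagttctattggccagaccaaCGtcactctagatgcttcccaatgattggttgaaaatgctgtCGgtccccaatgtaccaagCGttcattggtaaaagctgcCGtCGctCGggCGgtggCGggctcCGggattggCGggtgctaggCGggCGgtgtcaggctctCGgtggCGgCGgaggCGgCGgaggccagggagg
Ptprs: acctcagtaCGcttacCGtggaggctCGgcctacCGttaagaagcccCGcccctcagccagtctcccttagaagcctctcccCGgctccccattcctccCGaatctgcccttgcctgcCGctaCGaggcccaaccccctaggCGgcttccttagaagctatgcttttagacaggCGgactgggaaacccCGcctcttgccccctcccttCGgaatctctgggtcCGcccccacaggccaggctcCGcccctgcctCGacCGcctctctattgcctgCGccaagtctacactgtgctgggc
Mad1l1: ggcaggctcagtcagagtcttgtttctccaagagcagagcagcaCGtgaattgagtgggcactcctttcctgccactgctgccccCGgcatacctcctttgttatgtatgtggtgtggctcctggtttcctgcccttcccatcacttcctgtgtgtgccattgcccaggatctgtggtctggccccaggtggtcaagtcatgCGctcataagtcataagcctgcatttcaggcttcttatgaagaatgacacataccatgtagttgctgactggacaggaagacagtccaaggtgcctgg

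The same choice was made for starts of long noncoding RNAs. Gm38882 and 1700028E10Rik lie under the members of highest level with such a window, and Gm34994 lies under the peak with the lowest difference. The windows are Gm38882 at chr6:117879383-117879682, 1700028E10Rik at chr5:151368425-151368724 and Gm34994 at chr5:147159050-147159349, all on the plus strand.
Gm38882: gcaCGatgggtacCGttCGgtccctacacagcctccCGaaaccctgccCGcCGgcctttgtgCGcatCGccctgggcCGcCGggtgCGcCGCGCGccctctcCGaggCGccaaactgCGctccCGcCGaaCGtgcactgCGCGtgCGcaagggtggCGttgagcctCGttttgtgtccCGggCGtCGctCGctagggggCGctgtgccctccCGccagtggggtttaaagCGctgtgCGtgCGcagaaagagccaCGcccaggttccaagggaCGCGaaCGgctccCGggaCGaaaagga
1700028E10Rik: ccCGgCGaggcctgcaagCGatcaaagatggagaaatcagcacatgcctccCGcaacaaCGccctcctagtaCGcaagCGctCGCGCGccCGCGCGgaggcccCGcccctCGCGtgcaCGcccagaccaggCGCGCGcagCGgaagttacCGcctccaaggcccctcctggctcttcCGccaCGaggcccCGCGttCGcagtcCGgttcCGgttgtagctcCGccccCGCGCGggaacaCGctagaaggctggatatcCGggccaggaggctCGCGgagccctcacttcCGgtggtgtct
Gm34994: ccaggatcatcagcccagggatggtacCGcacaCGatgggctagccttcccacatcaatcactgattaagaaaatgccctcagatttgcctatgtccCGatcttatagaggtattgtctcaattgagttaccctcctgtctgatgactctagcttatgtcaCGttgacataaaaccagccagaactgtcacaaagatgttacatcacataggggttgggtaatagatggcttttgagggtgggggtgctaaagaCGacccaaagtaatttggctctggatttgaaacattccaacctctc

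The Sp2 window held 25 CG dinucleotides at a GC content of 59.7%, and its peak had 3929 normalised reads in GSK3368712 cells and 4068 in DMSO cells, a difference of -0.05. The Ptprs window held 18 at 64.3%, and its peak had 3281 reads in GSK3368712 cells and 3304 in DMSO cells. The Mad1l1 window held 3 at 53.3%, and its peak had 491 reads in GSK3368712 cells against 671 in DMSO cells, a difference of -0.45 which the authors' deposited table gives with an adjusted p of 0.00392. The Gm38882 and 1700028E10Rik windows held 40 and 38 CG dinucleotides, and their differences were -0.05 and -0.04. The Gm34994 window held 5, and its peak had 609 reads in GSK3368712 cells against 969 in DMSO cells, a difference of -0.67. These are 6 chosen windows, and the medians over all windows follow below.

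Beside promoters, 9 microRNA hairpins lay wholly inside strong distal peaks, 3 of them in members and 6 in other peaks. The mature microRNAs of the 3 are printed because they name these members by product. Capitals mark the seed, bases 2 to 8, through which a microRNA pairs with its targets, and none of the 6 seeds were shared.
mmu-miR-199a-5p: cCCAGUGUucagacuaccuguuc
mmu-miR-199a-3p: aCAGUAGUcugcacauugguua
mmu-let-7i-5p: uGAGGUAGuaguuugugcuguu
mmu-let-7i-3p: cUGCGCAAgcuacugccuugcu
mmu-miR-193a-5p: uGGGUCUUugcgggcaagauga
mmu-miR-193a-3p: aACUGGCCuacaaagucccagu

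The peak over Mir199a-2, at chr1:162217163-162218103 inside Dnm3, had 1184 reads in GSK3368712 cells and 1226 in DMSO cells. The peak over Mirlet7i, at chr10:122985265-122986606, had 626 in GSK3368712 cells and 635 in DMSO cells. The peak over Mir193a, at chr11:79710732-79712130, had 1252 in GSK3368712 cells and 1261 in DMSO cells. A second copy of miR-199a, Mir199a-1, lay in a strong distal peak just outside the tolerance, with 1075 reads in GSK3368712 cells and 1031 in DMSO cells, a difference of 0.06. The other 5 hairpins lay in peaks with differences of -0.12 to -0.25. Read counts describe open DNA over these loci and say nothing of the level of the microRNAs.

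The members sat on the upper flank of the distribution of strong distal peaks and not at its middle. The median difference over all 4811 strong distal peaks was -0.11, and 3121 of them (64.9%) lay below -0.05 while 688 (14.3%) lay above 0.05. The median over the peaks the authors tested was -0.07, and the sum over all peaks was 24524730 normalised reads in GSK3368712 cells and 25913087 in DMSO cells, a log2 ratio of -0.08. A difference near 0 was therefore a relatively high one in this table. Of the members, 503 lay below 0, 79 at 0 and 420 above 0. The rule cut through a dense part of the distribution: 106 members were at -0.05 and 134 peaks just outside at -0.06, and 75 members were at 0.05 and 62 peaks just outside at 0.06.

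**Figure D1:**
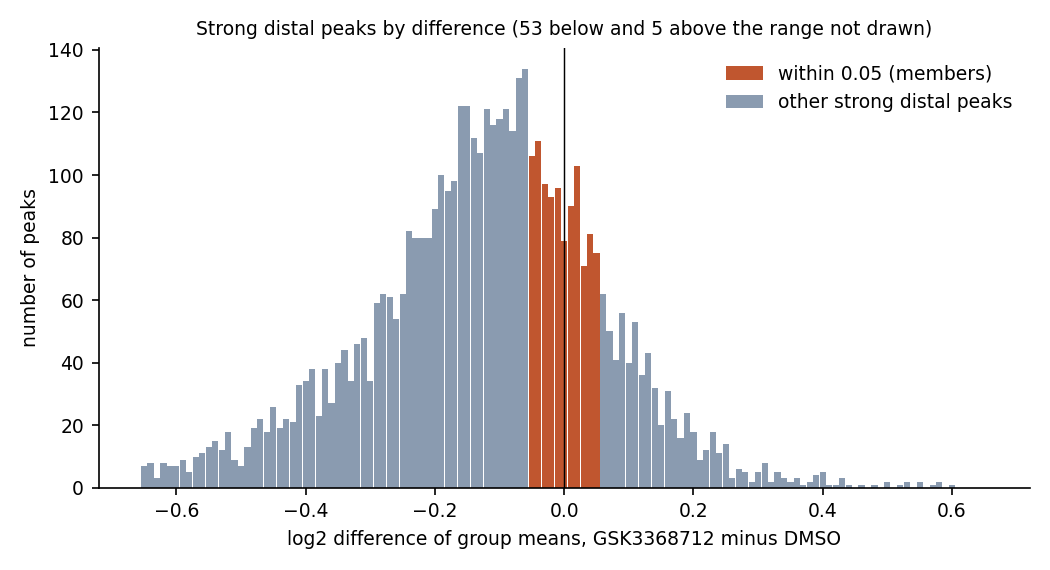
Number of strong distal peaks at each log2 difference, GSK3368712 minus DMSO, in steps of 0.01, with the 1002 members coloured apart from the 3809 other peaks. The members lie to the right of the median of -0.11, and peaks are as dense just outside the lower edge as inside it.

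Because the tolerance was narrower than the error, membership does not show that a site did not change. A standard error was derived from the difference and the p-value of the authors' deposited table for the 3100 strong distal peaks with a difference of at least 0.1 in size. Its median was 0.10 log2, with quartiles of 0.090 and 0.11, so a 95% interval reached 0.20 to either side, or 4 times the tolerance. That reach was 0.24 at levels of 9 to 9.25 and 0.14 at levels of 10.5 or more, so the strongest peaks were measured with less error. In the authors' deposited table, 998 of the 1002 members had an adjusted p under 1 and 0 were called at an adjusted p under 0.05, beside 6.59% of all tested peaks called in either direction, 6.09% lower and 0.492% higher. That 0 follows from the rule and nothing is read from it. The members' unadjusted p-values in the authors' deposited table ran from 0.295 to 1.00 with a median of 0.778, so 0 were under 0.05. Of all strong distal peaks, 864 (18%) were called lower and 57 (1.18%) higher.

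Which peaks met the rule depended on the scaling. With the -0.08 of the summed reads taken off every difference, 1169 peaks met the tolerance and only 314 of the 1002 members were among them (31.3%). With the median of tested peaks taken off instead, 1262 met it, 407 of them members (40.6%).

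The strongest peaks on each side of each edge of the tolerance were the following. At -0.05 stood the peaks near Zfp958 (5873 reads in GSK3368712 cells, 6081 in DMSO cells), in Sp2 and near Trim55 (2740 in GSK3368712 cells, 2837 in DMSO cells). At -0.06 stood those in Tpm3, a tropomyosin gene (3444 in GSK3368712 cells, 3591 in DMSO cells), in Tef (3104 in GSK3368712 cells, 3236 in DMSO cells) and in Nuggc (2896 in GSK3368712 cells, 3019 in DMSO cells). At 0.05 stood the peaks near Gm10925, Gm25313 and Gm22068, the strongest with 15076 reads in GSK3368712 cells and 14563 in DMSO cells, which are described below. A difference of 0.06 was reached near Slc2a3, a glucose transporter gene, with 3468 reads in GSK3368712 cells and 3327 in DMSO cells. The peaks in Prkci and near Ankrd9 were also at 0.06, with 3104 reads in GSK3368712 cells and 2978 in DMSO cells for the peak in Prkci.

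The ends of the distribution show the size of change that other strong distal peaks reached. A peak 233 kb from Plk2, a polo-like kinase gene, had 241 reads in GSK3368712 cells against 917 in DMSO cells, a difference of -1.93. Peaks in Arhgap42 and near Tut7 stood at -1.25 and -1.16. At the other end, a peak of 5390 bp in Ahnak, which encodes a very large scaffold protein, had 904 reads in GSK3368712 cells against 370 in DMSO cells, a difference of 1.29. Peaks near Tpra1 and in Ccdc33 stood at 0.84 and 0.81. All 6 were called in the authors' deposited table, at adjusted p-values of at most 3.37e-10.

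The member of highest level was a peak of 4537 bp at chr1:24611602-24616138, 101 bp from the end of the pseudogene or noncoding gene Gm10925. It had 15076 normalised reads in GSK3368712 cells and 14563 in DMSO cells, a difference of 0.05. Its p in the authors' deposited table was 0.809, which gives a derived standard error of 0.21, against a median of 0.072 at levels of 10.5 or more. This stretch of chromosome 1 is known to resemble mitochondrial DNA, so reads of one cannot be assigned with certainty to the other.

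Next in level were peaks at the ends of small nuclear RNA genes, whose products build the spliceosome, and of U3 copies, which act in ribosomal RNA processing. The peak beside Rnu2-10, a U2 copy, at chr11:101657729-101659811 had 8481 reads in GSK3368712 cells and 8306 in DMSO cells. The peak beside Gm25313 at chr9:65195208-65196944 had 7383 in GSK3368712 cells and 7132 in DMSO cells. The peak beside Gm22068, inside Tex14 at chr11:87426696-87428213, had 6985 in GSK3368712 cells and 6747 in DMSO cells. All 3 means were higher in GSK3368712 cells, by 0.03 to 0.05. The rule limits them to 0.05, and the 95% interval at levels of 10.5 or more reached 0.14, so no direction is read from them.

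Gm23971, another snRNA gene, lay beside a member with 3984 reads in GSK3368712 cells and 3848 in DMSO cells, and Rnu3b2, a U3 copy in Tex14, beside one with 3350 in GSK3368712 cells and 3397 in DMSO cells. So 5 of the 10 members of highest level lay within 1 kb of the end of a gene annotated as snRNA. The same held for 5 of the 10 other strong distal peaks of highest level. Among the 50 of highest level in each set it held for 5 members and 11 others. The strongest other peak was not at such an end. It lay 462 bp from an end of Rn18s-rs5, with 112534 reads in GSK3368712 cells and 96618 in DMSO cells. The remaining 4 of the 10 members were a peak near Zfp958, a peak in Plec (4608 reads in GSK3368712 cells, 4576 in DMSO cells), which encodes the cytoskeletal linker plectin, and the promoter windows of Sp2 and Ptprs. The snRNA and U3 genes exist in near-identical copies, so the split of reads among copies is uncertain.

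**Figure D2:**
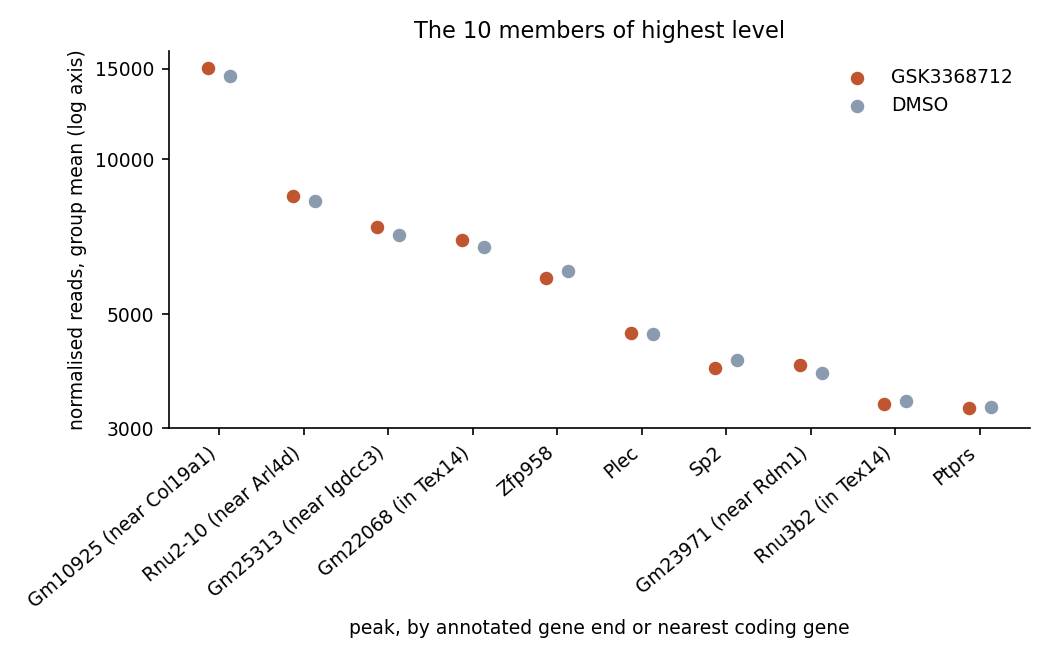
Mean normalised reads (log axis) in GSK3368712 cells, left point, and DMSO cells, right point, for the 10 members of highest level, named by the annotated gene end or the coding gene. Each pair lies close together by the choice of members; many of the names are snRNA or U3 genes.

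Median differences varied between kinds of small RNA gene end, and no test was made of this. Over the 29 strong distal peaks within 1 kb of an snRNA gene end, the median difference was 0.07, with 17 above 0.05, 10 within it and 2 below -0.05. Over the 67 peaks at tRNA gene ends the median was -0.09, with 5 above 0.05, 16 within it and 46 below -0.05. It was -0.06 over 18 peaks at microRNA gene ends and -0.08 over 7 at snoRNA gene ends. Any peak within 0.05 of 0 lies below the snRNA median and above the tRNA median, so the members' place between them follows from the rule. Inside Tex14, 7 strong distal peaks lay in a row: the 2 members above, 4 peaks at Rnu1a1, Rnu3b1, Rnu3b3 and Rnu3b4 with differences of 0.07 or 0.08, and a peak of 729 reads in GSK3368712 cells against 861 in DMSO cells at -0.24.

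Of the 16 members at tRNA gene ends, the one of highest level was near Trim55, beside the tyrosine tRNA gene n-TYgta1, at -0.05. Among tRNA and histone genes on chromosome 13, from 21169691 to 23431098, lay 8 of the 16. How many of the 51 other strong distal peaks at tRNA gene ends lie on this stretch was not counted, so no gathering of members is read from it. There the peak beside n-TSgct5, a serine tRNA gene, had 1698 reads in GSK3368712 cells and 1687 in DMSO cells, and the peak over n-TGgcc7, a glycine tRNA gene, had 885 in GSK3368712 cells and 855 in DMSO cells.

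A larger part of the members than of the other strong distal peaks overlay an annotated start. With chromosome 18 left out, for which no promoter windows were given, 140 of 975 members (14.4%) overlapped a protein-coding promoter window by at least 1 base, against 204 of 3698 other peaks (5.52%). All 140 lay inside the body of the gene whose window they overlapped, as did all 204, so these are starts inside a longer annotated gene. A further 65 members (6.67%) against 172 others (4.65%) overlapped a window of a long noncoding RNA, 25 (2.56%) against 76 (2.06%) lay within 1 kb of a small RNA gene end, and 59 (6.05%) against 150 (4.06%) lay within 1 kb of another lncRNA or pseudogene end. Each peak was counted once, in the first of these classes that it met. The small RNA class therefore leaves out peaks at such ends that also overlapped a promoter window. In all, 289 members (29.6%) and 602 others (16.3%) fell into one of these 4 classes, which leaves 686 members (70.4%) and 3096 others (83.7%) in none. No test was made over peaks, which are not replicates of a treatment.

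Read the other way, 40.7% of the 344 strong distal peaks over a coding window were members, against 18.1% of the 3782 peaks in none of the classes. The median difference was -0.04 for peaks over a coding window, -0.09 over an lncRNA window, -0.06 at small RNA ends and -0.13 in none. In the authors' deposited table, 3.20% of the peaks over a coding window were called lower, against 20.3% among peaks in none. The share over a coding window was 0% among strong distal peaks under -0.5, 1.97% from -0.5 to -0.25, 6.37% from -0.25 to -0.05, 14.4% within 0.05, 9.92% from 0.05 to 0.25 and 0% over 0.25. Coding windows were thus most frequent in the members' band and absent from both tails.

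**Figure D3:**
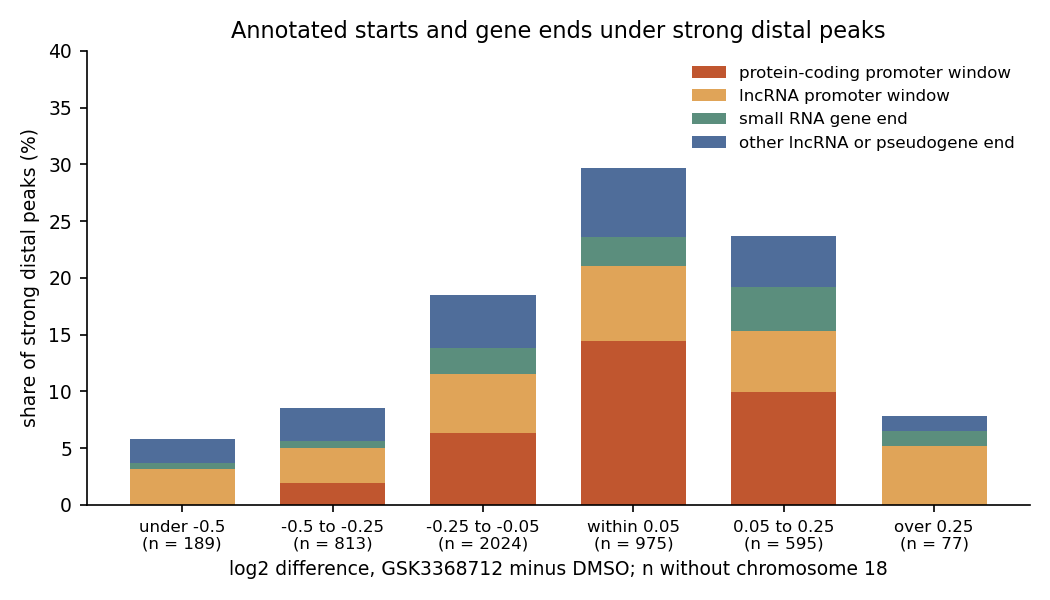
Share of strong distal peaks (%) that overlay a promoter window or lay within 1 kb of a noncoding gene end, in bands of the log2 difference, GSK3368712 minus DMSO, without chromosome 18. The stacked share is 29.6% for the members' band, 23.7% from 0.05 to 0.25 and 18.5% from -0.25 to -0.05, and under 9% in the outer bands.

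The larger share of coding windows held at matched level and at matched distance. It was 12.8% of members against 3.02% of others at levels of 9 to 9.25, 9.85% against 4.70% at 9.25 to 9.5, 15.2% against 5.07% at 9.5 to 10, 15.7% against 7.82% at 10 to 10.5 and 16.7% against 8.70% above. By distance it was 24.0% of members against 10.3% of others at 5 to 10 kb, 13.4% against 5.53% at 10 to 25 kb, 10.5% against 4.15% at 25 to 50 kb, 10.3% against 3.64% at 50 to 100 kb and 4.12% against 1.49% beyond. It was smaller but still above the others under the other scalings, at 11.1% of members against 6.18% of others with summed reads and 10.9% against 6.11% with the median taken off.

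The genes with such internal starts had mixed roles. Kctd7 had 2487 reads in GSK3368712 cells and 2574 in DMSO cells, and Cops3, a subunit of the COP9 signalosome, had 2435 in GSK3368712 cells and 2487 in DMSO cells. Hdac4, a class IIa histone deacetylase, had 2165 in GSK3368712 cells and 2210 in DMSO cells. The window of Srrm2, which encodes a large protein of splicing speckles, had 1885 in GSK3368712 cells and 1924 in DMSO cells.

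Sgk1, a kinase gene known to respond to serum and glucocorticoids, had 1978 reads in GSK3368712 cells and 2020 in DMSO cells over an internal start. Pfkfb3, a regulator of glycolysis, had 1489 in GSK3368712 cells and 1438 in DMSO cells. Adar, which edits adenosines in double-stranded RNA, had 1428 in GSK3368712 cells and 1399 in DMSO cells. Per1, a repressor of the circadian clock, had 1389 in GSK3368712 cells and 1418 in DMSO cells, and Psma3, a proteasome subunit gene, had 1409 in GSK3368712 cells and 1361 in DMSO cells. Pfkfb3, Adar and Psma3 were slightly higher in GSK3368712 cells and the other 6 named here slightly lower, all within 0.05.

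Over all windows lying wholly inside a peak, those in members were rich in CG. The 151 coding windows in 127 members had a median GC content of 64.0% and a median ratio of observed to expected CpG of 0.772, against 63.3% and 0.721 for 210 windows in 185 other strong distal peaks. All 21263 coding windows of the table had medians of 56.3% and 0.567, and the 11 windows in the 8 strong distal peaks called lower had 56.0% and 0.387. The letters GGGCGG, read by factors of the Sp and KLF families, occurred on either strand in 67.5% of the members' coding windows, 69.5% of the others' and 46.2% of all coding windows. Among the 11 windows in peaks called lower the share was 27.3%. The members' windows were therefore CpG-rich against the whole annotation, and close to those of other strong distal peaks.

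The lncRNA windows differed more between the sets. The 66 in members had a median GC content of 57.7% and CpG ratio of 0.610, against 54.7% and 0.456 for 162 in other strong distal peaks, 50.3% and 0.380 for 25 in peaks called lower, and 48.3% and 0.245 for all 11588. The letters TGANTCA, a match to the AP-1 site, occurred in 10.6% of the members' lncRNA windows and 23.5% of the others'. The shares were 28.0% for those in peaks called lower and 9.31% for all. These windows lay in 58 members, 144 other peaks and 21 peaks called lower. In coding windows the sets were close, at 8.61% of the members', 10.0% of the others', 9.09% in peaks called lower and 6.99% of all. A lower share in members was thus seen for lncRNA windows only, and it was not tested. The letters CCAAT, on either strand, occurred in 34.8% of the members', 34.0% of the others' and 36.0% of all lncRNA windows. Windows overlap where genes share a start, a match is a description of letters, and the DNA of peaks without a window was not analysed here.

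Widths were close between the sets. The median width of members was 966 bp, with quartiles of 769 and 1222 bp, against 941 bp, with quartiles of 756 and 1205 bp, for the other strong distal peaks. Stronger peaks were wider, and at matched level the order of the medians changed from bin to bin: 851 bp for members against 853 bp for others at levels of 9 to 9.25, 870 against 881 at 9.25 to 9.5, 960 against 922 at 9.5 to 10, 1000 against 1026 at 10 to 10.5 and 1135 against 1213 above. With the others weighted to the members' levels their median was 956 bp. Peaks of 2 kb or more made up 12 of the members and 59 of the others (1.55%), beside 6 of the 57 strong distal peaks called higher in the authors' deposited table.

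**Figure D4:**
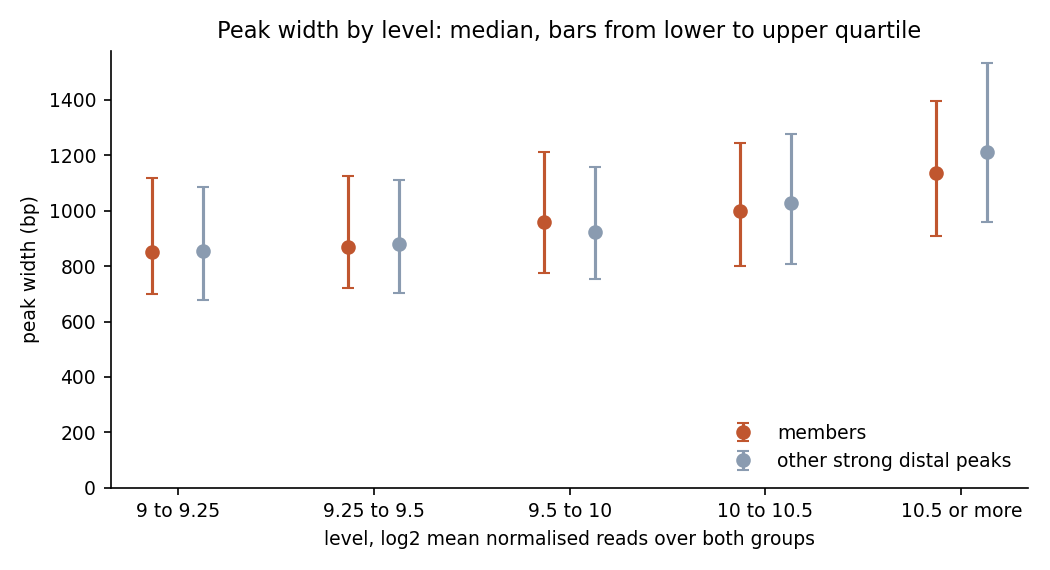
Peak width in bp by bin of level, as the median with a bar from lower to upper quartile, for members (left point) and other strong distal peaks (right point). The quartile ranges overlap in every bin, and members have the wider median only at levels of 9.5 to 10.

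The widest members after the one near Gm10925 were a peak of 3248 bp near Ccr1 at the lncRNA start of Gm51701, with 1758 reads in GSK3368712 cells and 1771 in DMSO cells, and a peak of 2327 bp in Plekha7 with 1105 in GSK3368712 cells and 1075 in DMSO cells. The next were 2309 bp near Lactb and 2261 bp near Klhdc8a. The narrowest member, 287 bp inside Rabgap1l with Gpr52 as the nearest coding end, had 622 reads in GSK3368712 cells and 644 in DMSO cells. The next was 292 bp inside Plec, and the third, of 317 bp, lay near Il17a, 840 bp from Mir206, a muscle microRNA gene. The fourth was 333 bp inside Gse1 and the fifth 368 bp near Mcl1, which encodes an inhibitor of apoptosis, with 501 reads in GSK3368712 cells and 519 in DMSO cells. These narrowest members had levels near the minimum, of 9.31 or less, and 1391 to 2212 reads per kb. A narrow peak meets the level condition only if its reads are dense, so these densities follow from the rule.

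Levels of the members were somewhat higher. The median level was 9.77, or 870 reads, for members against 9.64, or 798 reads, for the others, and per kb of peak the medians were 926 and 901 reads. The 2084 peaks with differences from -0.25 to -0.05 were close to the members, with medians of 9.75 and 961 reads per kb. Median levels were lower in the remaining bands: 9.41 under -0.5, 9.56 from -0.5 to -0.25, 9.57 from 0.05 to 0.25 and 9.34 over 0.25. The share of strong distal peaks that were members was 18.9% at levels of 9 to 9.25, 15.9% at 9.25 to 9.5, 21.5% at 9.5 to 10, 24.1% at 10 to 10.5 and 24.4% above. The derived standard error narrowed over the same bins, at 0.12, 0.11, 0.10, 0.086 and 0.072, and its part in this order was not tested. All 1002 members and 3807 of the 3809 others had been called as peaks in all 4 libraries, against 67.1% of all peaks in the table.

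Members lay somewhat nearer to coding genes. The median distance from the peak centre to the nearest coding gene end was 19.2 kb for members, with quartiles of 9.59 and 45.9 kb, against 23.1 kb, with quartiles of 11.4 and 50.7 kb, for the others. Inside a coding gene body lay 545 members (54.4%) and 1906 of the 3809 others. This share was not particular to the members. It was 48.2% under -0.5 and from -0.5 to -0.25, and 49.1% from -0.25 to -0.05. Above the tolerance it was 55.4% from 0.05 to 0.25 and 56.2% over 0.25. Among peaks in none of the annotated classes the sets were closer, with medians of 22.1 kb for members and 24.0 kb for others and 51.7% against 50.3% inside a gene body. The gene body difference did not hold under the scaling by summed reads, at 50.9% of members against 51.0% of others.

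The trend with distance began well before the limit of 5 kb. Among all strong peaks of the table, the share with a difference within 0.05 was 43.6% within 1 kb of a coding gene end (3159 of 7252), 29.6% at 1 to 5 kb, 25.1% at 5 to 10 kb and 20.3% at 10 to 25 kb, and then level at 19.1% to 19.2%. In the authors' deposited table the share called lower ran the other way, at 1.32%, 10.0%, 13.6% and 18.2% over the same distances and 21.8% beyond 100 kb. Among strong distal peaks in none of the annotated classes the members' share was 20.4% at 5 to 10 kb and 16.5% to 18.4% in the 4 bins beyond. Both shares at 5 to 10 kb lay between those at 1 to 5 kb and those farther out.

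**Figure D5:**
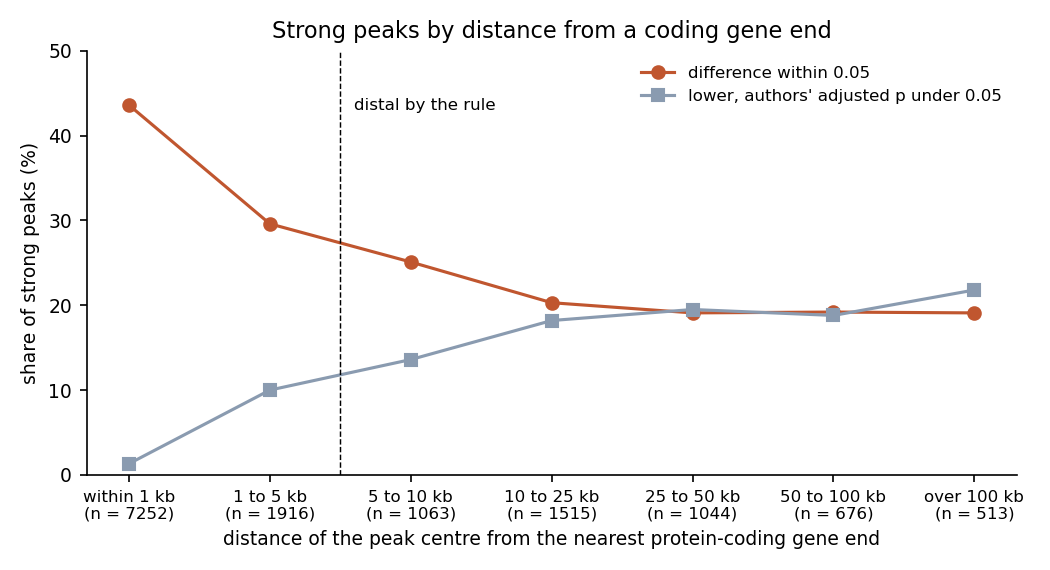
Share (%) of strong peaks with a log2 difference within 0.05, and share called lower in the authors' deposited table, by distance of the peak centre from the nearest protein-coding gene end. The first share falls over distance to about 19% beyond 25 kb, and the second climbs to 21.8% beyond 100 kb; the dashed line marks the 5 kb limit.

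Some members were very remote. The farthest, at chr14:82065103-82065668, lay 2042 kb from the nearest coding end, that of Olfm4, a gene of intestinal stem cells, and had 1380 reads in GSK3368712 cells and 1370 in DMSO cells. A member 708 kb from Myc, the growth regulator, had 724 in GSK3368712 cells and 719 in DMSO cells. The next farthest lay 354 kb from Ubash3b, 343 kb from Mn1 and 335 kb from Trib2. In all, 98 members (9.78%) and 415 others (10.9%) lay more than 100 kb from a coding end. The nearest end names a place and not a regulated gene.

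The members nearest to the limit lay 5.03 to 5.08 kb from a coding end. They were in Dbn1, which encodes the actin-binding protein drebrin (1235 reads in GSK3368712 cells, 1218 in DMSO cells), near H2bc13 at the glycine tRNA gene above, near Gadd45g (1184 in GSK3368712 cells, 1193 in DMSO cells), in Pdgfra, a receptor for platelet-derived growth factor (1428 in GSK3368712 cells, 1418 in DMSO cells), and in Atg4c, an autophagy protease gene (644 in GSK3368712 cells, 630 in DMSO cells). The Atg4c member overlay a promoter window of that gene.

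The members were spread over 887 nearest genes, of which 793 had 1 member, 78 had 2 and 16 had 3 or more. Rab11fip4, an effector of the recycling GTPase Rab11, had 9 strong distal peaks, of which 5 were members. The 5 spanned 184 kb and included the Mir193a peak. The strongest of the 5 had 2647 reads in GSK3368712 cells and 2702 in DMSO cells. Gadd45g, a growth arrest and DNA damage gene, Nfatc2, a calcium-responsive transcription factor, and Slc39a11, a zinc transporter, had 4 members each. Genes with 3 included Bahcc1, Cubn, Gins2, Klrb1c, Lekr1, Plec, Samd4, Specc1, Trim27, Wnt7b and Wsb1.

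A member did not mean that the other strong peaks of its gene were members. Of the 887 genes, 134 also had a strong distal peak called lower in the authors' deposited table. The number with such a peak among all 3014 genes with a strong distal peak was not counted. Whether 134 is many or few is therefore not known. Gadd45g and Bahcc1 had 2 such peaks each: the differences of their strong distal peaks ran from -0.52 to 0.10 at Gadd45g and -0.33 to 0.13 at Bahcc1. At Samd4 they ran from -0.74 to 0.13. Klrb1c, a natural killer cell receptor gene, and Specc1 were the 2 of these 16 genes at which all 3 strong distal peaks were members, with differences of 0.00 to 0.02 and -0.03 to 0.01. The strongest of the Klrb1c peaks had 1938 reads in GSK3368712 cells and 1924 in DMSO cells.

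The surroundings of members differed little from those of the other strong distal peaks. Within 50 kb members had a median of 9 other peaks, with a median difference of -0.08, against 8 peaks and -0.11 for the others. A peak called lower in the authors' deposited table lay within 50 kb of 417 members (41.6%) and of 1769 others (46.4%), and a peak called higher of 5.49% and 5.72%. Another member lay within 50 kb of 19.1% of members and 17.1% of others. Over the chromosomes with more than 1 strong distal peak, which leaves out Y with 1 peak and 0 members, the share that were members ran from 11.9% on chromosome 16 to 25.3% on chromosome 9.

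The members near genes of 12 lists were counted, beside 20.8% members, 18% called lower and 1.18% called higher over all strong distal peaks, with calls taken from the authors' deposited table. Of the 42 strong distal peaks nearest to genes of AP-1 and the immediate early response, which answer signals within minutes, 9 were members, 10 were called lower and 0 higher, and 16 were lower and 0 higher at an unadjusted p under 0.05 in the authors' deposited table. The strongest members were near Klf6 (1458 reads in GSK3368712 cells, 1479 in DMSO cells), Klf4 (1323 in GSK3368712 cells, 1296 in DMSO cells), Fos (1261 in GSK3368712 cells, 1296 in DMSO cells) and the phosphatase gene Dusp1 (1226 in GSK3368712 cells, 1252 in DMSO cells). The median difference over the 42 was -0.15.

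Among matrix and mesenchyme genes 6 of 33 peaks were members, 6 were called lower and 2 higher, with the strongest members near Sparc, a secreted matrix protein gene (1758 reads in GSK3368712 cells, 1783 in DMSO cells), and near Zeb1 and Snai1, repressors of epithelial genes. Among TGF-beta and Hippo genes 7 of 28 were members and 6 were called lower. Members lay in Wwtr1, which encodes the coactivator TAZ (879 in GSK3368712 cells, 873 in DMSO cells), in Smad7 and Tead1 and near Smad3 among others. Among Wnt and TCF genes 5 of 14 were members and 0 were called, while 1 was lower and 1 higher at an unadjusted p under 0.05 in the authors' deposited table. Of the 5 members 3 lay in or near Wnt7b, a Wnt ligand gene, the strongest with 1629 in GSK3368712 cells and 1641 in DMSO cells.

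Among cytokine and chemokine genes 5 of 15 were members and 5 were called lower. The members lay near Cxcl1, a neutrophil attractant gene (1193 reads in GSK3368712 cells, 1226 in DMSO cells), Csf2 (1067 in GSK3368712 cells, 1082 in DMSO cells) and Csf1 (969 in both groups), growth factor genes of myeloid cells, and in Lif (576 in GSK3368712 cells, 564 in DMSO cells). Among growth factor receptors and RAS-MAPK feedback genes 4 of 16 were members, in Pdgfra and Spred2 and near Spry2, and 3 were called lower. Among RUNX, ETS, KLF and CREB factors 2 of 30 were members, near Klf10 and over an internal start of Creb5, and 8 were called lower.

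Of the lists with few peaks, epithelial and intestinal genes had 2 members and 3 peaks called lower of 11, the members both near Krt18, a keratin gene of simple epithelia. The class I presentation and interferon genes had 1 member and 1 peak called lower of 10, the member in Nlrc5, an activator of class I genes (792 reads in GSK3368712 cells, 787 in DMSO cells). The arginine methyltransferases and their partners had 0 members of 2 peaks, and the melanocyte genes 0 of 1, a peak called lower. The only strong distal peak assigned to a blood cell marker, 164 kb from Ptprc and at the lncRNA start of Gm4258, was a member. These counts are too small to set any list apart, and nothing particular to a list is read from them.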

How the data were processed

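ATAC-seq libraries of MC38/gp100 cells were used through 1 table that the authors deposited. The submitters' processing notes list HISAT2 2.1.0, the build mm10, MACS2 2.1.1.20160309, Picard 1.113, DESeq2 and DiffBind 2.8.0, with no role or order. Settings and any transposase offset are not given in those notes. The authors deposited levels on the log2 scale at 2 decimals: the mean normalised count of each group, and of both. The deposited p-value and adjusted p-value are the authors' own, and no test was run here. The difference was computed as the GSK3368712 level minus the DMSO level. The deposited fold, DMSO minus GSK3368712, served only as a check of it. Because the levels are rounded to 2 decimals, a peak at an edge of the tolerance can fall inside or outside by rounding. Reads were computed as powers of 2 of the levels.

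Peaks were placed with RefSeq gene ends of GRCm38.p6 (21900 protein-coding genes) and 32851 promoter windows, with Python 3.11.15, numpy 2.4.6, pandas 2.3.3 and scipy 1.17.1. Placement was tested on 3000 simulated peaks. All 247 symbols of the 12 gene lists matched. A standard error was derived as the difference over the normal quantile of the authors' two-sided p-value. Peaks were named by the rule of the 10 highest levels, 5 widest, 5 narrowest, 5 farthest and 5 nearest members, 3 peaks on each side of each edge of the tolerance, the 3 largest differences each way, genes with 3 or more members and up to 4 members per list; peaks over promoter windows and RNA gene ends were named after values were seen. The members and lists were chosen with earlier results of these data known.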

Additional observations from a re-analysis of the deposited data

How the results depend on the processing

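No paired analysis was possible because the table holds group means and no column per library, and leaving out a library could not be run for the same reason. Depth per library is unknown. The tolerance of 0.05 is smaller than the derived 95% interval, which reaches 0.20 to either side, and the scaling by summed reads kept 31.3% of the members and centring on the median 40.6%. Of 135 alternative values, 43 moved, judged by the 95% interval of the value as reported for shares and medians and by a fold limit for the number of members, and 92 did not. Members were nearer to a coding gene end than the other strong distal peaks in all 13 settings, and more often over a coding promoter window in all 12 settings that allowed it. Their median width was the larger in all 13, but by little: 949 bp for members against 945 bp for others scaled by summed reads and 948 against 945 bp centred on the median, and within bins of level members were the narrower in 4 of 5. Their share inside a gene body was higher in 12 settings and lower in 1, the scaling by summed reads. In the main setting the bands above the tolerance had shares of 55.4% and 56.2%, no lower than the members' 54.4%.

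A tolerance of 0.025 gave 461 members (9.58%) and 0.1 gave 1869 (38.8%). Among the values that moved, the members' share was 22.9% at a level of 9.5. By distance it was 22.2% at 2 kb and 19.6% at 10 kb. It was 24.3% scaled by summed reads, 26.2% centred on the median and 18.2% without annotated starts and RNA gene ends. That last setting was chosen after seeing the data, as was the count over promoter windows. The setting without annotated starts kept chromosome 18, for which no promoter windows were given, so starts there were not fully taken out. At a level of 8.5 the median widths were 908 bp for members and 894 bp for others, with levels of 9.38 and 9.26, and at 9.5 they were 1011 and 1001 bp, with 10.08 and 10.02. Median distances were 12.1 kb for members and 17.4 kb for others at 2 kb, 30.1 and 31.7 kb at 10 kb, and 12.8 and 14.9 kb with the ends of all genes, where 61.6% of members and 57.5% of others lay in a gene body. Without annotated starts the members' distance was 22.1 kb, and the others' width and level were 924 bp and 9.61. Scaled by summed reads, 50.9% of members lay in a gene body. Weighted to the members' levels, the others' width and level were 956 bp and 9.77. The causes of these moves were not tested.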
